A study of Homo sapiens with 34 samples.

Results

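The comparison set 4 libraries in which a premature termination codon (PTC) exon of FNBP4 was targeted for deletion against 4 libraries in which intronic sequence close to it was targeted, 8 of the 34 libraries of the series. The 8 were chosen by their hybrid guide RNA (hgRNA): hgRNAs 3 and 4 for the PTC exon, hgRNAs 1 and 2 for the intron, each in biological duplicates. All were hTERT RPE-1 cells, a telomerase-immortalised human retinal pigment epithelium line. Every culture was transduced at low multiplicity with lentivirus carrying an hgRNA cassette, in which a Cas9 guide is joined to a Cas12a guide so that both enzymes cut in one cell. Selection with puromycin at 20 µg/ml lasted 72 h and was followed by 4 days of growth, with collection at 50 to 70% confluency. The 4 intergenic control libraries, 2 hgRNAs in duplicates that underwent the same treatment, serve as background only. The cells were transduced pools, not clones by any label, and the share of alleles deleted in each pool is not given in the sources used here. Total RNA depleted of ribosomal RNA was sequenced as stranded libraries.

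A PTC exon carries an in-frame stop codon, so that a transcript which includes it usually ends its reading frame early and becomes a substrate of nonsense-mediated decay, the pathway that destroys such messages. Such exons often lie within introns that splice slowly; a transcript with a detained intron stays in the nucleus, often near nuclear speckles, bodies rich in splicing factors. Skipping the exon and removing the whole intron gives the productive message. FNBP4 encodes formin-binding protein 4, which has WW domains that bind proline-rich stretches of formins, the proteins that nucleate and extend actin filaments.

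The targeted sequences are shown because the sites located for them lie close together in one intron, and because hgRNAs of opposite groups share a guide. FNBP4 lies on the minus strand at chr11:47716517-47767443 (GRCh38, annotation GENCODE v29). The PTC exon occupies chr11:47732117-47732219, is 103 bases long and sits inside intron 11, a 975-base intron at chr11:47731562-47732536 between exons 11 and 12 of 17. Its sequence on the transcribed strand is given with the in-frame stop codon, which begins at base 23 of the exon, in capitals.
PTC exon: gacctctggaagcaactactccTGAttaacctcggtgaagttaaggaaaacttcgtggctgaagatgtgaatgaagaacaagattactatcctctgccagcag

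The guides follow, with the 10 bases next to the protospacer-adjacent motif in capitals.
hgRNA 3 Cas9: tgtgaattccACGGTCCAAG
hgRNA 3 Cas12a: TCCAATGTGTggctggccaaact
hgRNA 4 Cas9: caactactccTGATTAACCT
hgRNA 4 Cas12a: TAAGTCTCATctgttggagtgag
hgRNA 1 Cas9: caattgagaaTGGAGAACCA
hgRNA 1 Cas12a: ATATCAAGAAtatgaaatgtgaa
hgRNA 2 Cas9: tgtgaattccACGGTCCAAG
hgRNA 2 Cas12a: CACTGCCAGCaactctgtgaata
The Cas9 guides of hgRNAs 3 and 2 have the same sequence, so this pair of constructs, one in each group, differs by its Cas12a guide alone. That shared guide matches chr11:47731955-47731974 on the minus strand. The Cas12a site of hgRNA 3, at chr11:47732365-47732387, lies beyond the other end of the exon, and the outer edges of its sites span 433 bases. The Cas9 guide of hgRNA 4, at chr11:47732188-47732207, lies inside the exon and contains its stop codon. The Cas12a guide of hgRNA 1 matches chr11:47731969-47731991, where it overlaps the shared Cas9 site. The other guides are given by sequence only.

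Gene levels were measured as reads across spliced exon-exon junctions, summed per gene and normalised for library size (CPM). The 4 PTC exon deletion libraries held 15027805 to 18848398 such reads and the 4 intron deletion libraries held 15597577 to 20148763. Of the pigment epithelium markers, KRT8 and KRT18 were abundant and MITF and OTX2 were present, while TTR, TYR and DCT were at 0 and RPE65, RLBP1 and BEST1 stayed at or below 0.380 CPM in every library. A principal component analysis placed the groups apart on the first component, which took 64.6% of the variance. The second, with 25.2%, set hgRNA 3 replicate 1 apart: it scored 28.2, against -14.9 to -13.3 for the other PTC exon deletion libraries and 1.21 to 6.65 for the intron deletion libraries. The log2 difference between duplicates had an SD over genes of 0.495 for hgRNA 3, 0.147 for hgRNA 4, 0.180 for hgRNA 1 and 0.155 for hgRNA 2. Counts and values that moved by over 1.5 times without that library are given both ways.

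FNBP4 itself was higher in every PTC exon deletion library than in any intron deletion library. Its level was 162 and 123 CPM with hgRNA 3 and 114 and 108.7 CPM with hgRNA 4, against 52.7 and 53.7 CPM with hgRNA 1 and 53.1 and 48.5 CPM with hgRNA 2. The groups did not overlap, and the 4 intergenic control libraries averaged 41.1 ± 4.73 CPM (SD, n = 4), below both. The log2 difference was 1.27 (SE 0.0987, limma with Benjamini-Hochberg adjusted p = 4.67e-05), and it was 1.17 without hgRNA 3 replicate 1. Between hgRNAs 3 and 2, which share the Cas9 guide, the difference was 1.47, and between hgRNAs 4 and 1 it was 1.06. With the junctions of the edited intron left out of the sum, the gene differed by 1.22 (adjusted p = 5.41e-05, limma).
In the authors' deposited table of gene comparisons, FNBP4 stood at 35.2 RPKM with hgRNA 3 and 27.2 with hgRNA 4, against 18.4 with hgRNA 1 and 15.1 with hgRNA 2 and 14.3 in the controls. The authors' deposited table put the log2 fold change over control at 1.61 and 1.27 for hgRNAs 3 and 4, and at 0.30 and 0.29 for hgRNAs 1 and 2. At a deposited FDR (adjusted p-value) under 0.05, hgRNAs 3 and 4 passed and hgRNAs 1 and 2 did not.

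**Figure D1:**
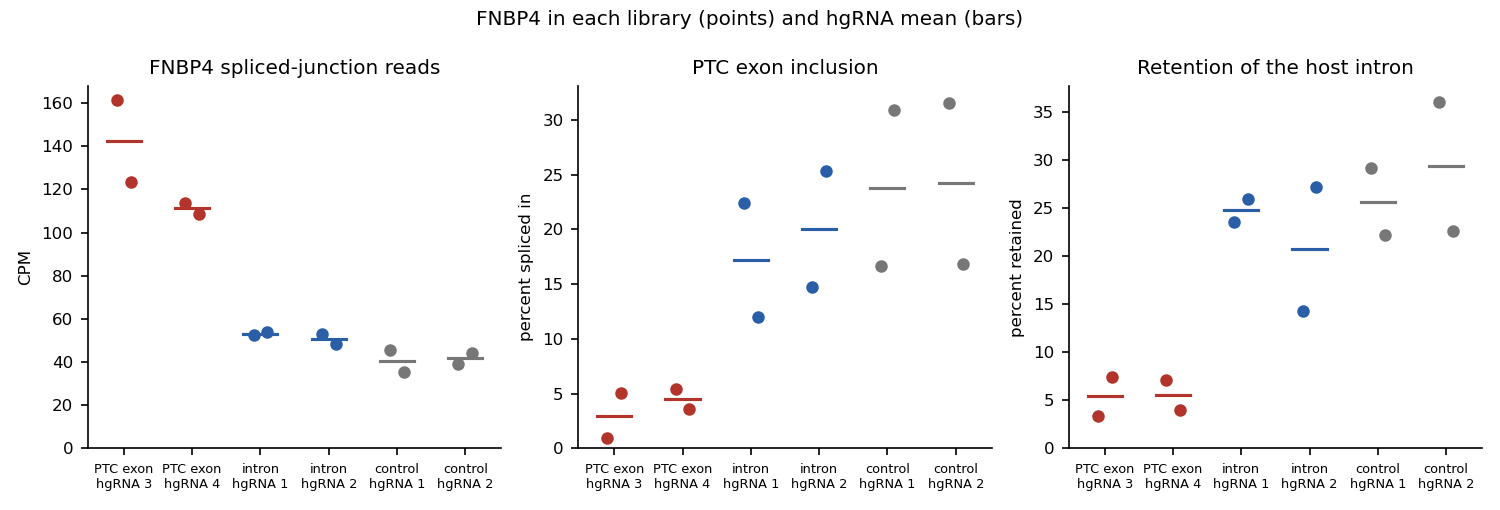
FNBP4 in each library, as spliced-junction reads (left, CPM), inclusion of the PTC exon (middle, percent) and retention of its host intron (right, percent), by hgRNA; points are libraries and bars are means of duplicates. The PTC exon deletion libraries, at 108.7 to 162 CPM, lie above the intron deletion libraries at 48.5 to 53.7 CPM in the left panel and below all other libraries in the middle and right panels.

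The PTC exon was included in 0.960% and 5.01% of reads with hgRNA 3 and 5.45% and 3.61% with hgRNA 4, against 22.4% and 12.0% with hgRNA 1 and 14.7% and 25.3% with hgRNA 2. The groups did not overlap, and the intergenic control libraries, at 16.7% to 31.6%, spanned a range that overlapped the intron deletion group only. These percentages rest on at least 158 reads in each PTC exon deletion library and on 52 to 78 reads in each intron deletion library. An allele that has lost the exon cannot include it, so the share of deleted alleles and the splicing of the others cannot be told apart here. The counting intervals are wide: the highest 95% upper bound (exact Clopper-Pearson) among the PTC exon deletion libraries was 9.59%, and the lowest lower bound among the intron deletion libraries was 5.18%. The mean differed by -14.9 percentage points; the fit over all 270329 splicing events gave an unadjusted p of 0.000517 and an adjusted p of 0.167 (limma), so the difference was not called there. With the spread estimated from all 34 libraries the adjusted p was 0.0137 (limma).

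Retention of the host intron, the share of reads that leave intron 11 in place, was 3.36% and 7.45% with hgRNA 3 and 7.09% and 3.97% with hgRNA 4. It was 23.6% and 26% with hgRNA 1 and 14.3% and 27.3% with hgRNA 2, and 22.2% to 36.1% in the controls. All 4 PTC exon deletion libraries lay below all the others. The difference of -17.3 points had an adjusted p of 0.147 as designed and 0.0867 with the spread of all 34 libraries (limma).

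Intron 12, the next one downstream at chr11:47724779-47731373, also had lower retention values in the PTC exon deletion libraries. It holds none of the guide sites with coordinates above; the sites of the other guides, and so the reach of their deletions, were not established. Its retention was 3.76% and 2.29% with hgRNA 3 and 1.73% and 0.980% with hgRNA 4, against 8.88% and 20.2% with hgRNA 1 and 15.2% and 7.21% with hgRNA 2. The controls, at 10.2% to 16.1%, overlapped the intron deletion libraries and not the PTC exon deletion libraries. The difference of -10.7 points had an adjusted p of 0.137 as designed and 0.00264 with all 34 libraries (limma). Intron 8 showed another order of groups. Its retention was 1.41%, 0.400%, 0.680% and 0.450% in the PTC exon deletion libraries, against 8.44%, 7.76%, 3.86% and 6.45% in the intron deletion libraries, and 1.30% to 2.13% in the controls. Here all intron deletion libraries lay above the controls, while the PTC exon deletion libraries lay below the controls or overlapped their low end. The difference of -5.89 points between PTC exon deletion and intron deletion had an adjusted p of 0.132 as designed and 0.00589 with all 34 libraries (limma). Neither group was tested against the controls. Of 57 FNBP4 events that could be tested, among them 13 introns and 19 cassette exons, 7 (12.3%) had groups that did not overlap, and all 7 were lower in the PTC exon deletion libraries. Over all 270329 events tested the groups did not overlap for 1.64%, with 1.08% lower. Most events lie near 0 or 100%; between 5 and 95% it was 3 of 4 FNBP4 events, all 3 lower, beside 8.09% of 16257 events, with 5.29% lower. Events of one gene share reads and are not independent.

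Along the gene, the spliced junctions of 15 of the 16 introns had more reads in every PTC exon deletion library than in any intron deletion library. The exception was intron 1, with 63 reads over the PTC exon deletion libraries and 70 over the intron deletion libraries. The log2 ratio of mean CPM had a median of 1.26 over the 16 junctions. It was 1.18, 0.94, 0.71 and 0.71 at introns 2 to 5, 1.52 at intron 9, 1.90 at intron 10, 2.10 at the edited intron 11 and 2.24 at intron 12. Downstream it was 1.61, 1.59, 1.68 and 1.23 at introns 13 to 16. The junctions next to the edited site thus had the largest ratios, and the 5′ part of the gene the smallest. At introns 10, 11 and 12 the intron deletion libraries averaged 1.97, 1.92 and 2.78 CPM, against 1.92, 1.64 and 2.76 CPM in the controls, whereas their means were above those of the controls at introns 2 to 9.

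**Figure D2:**
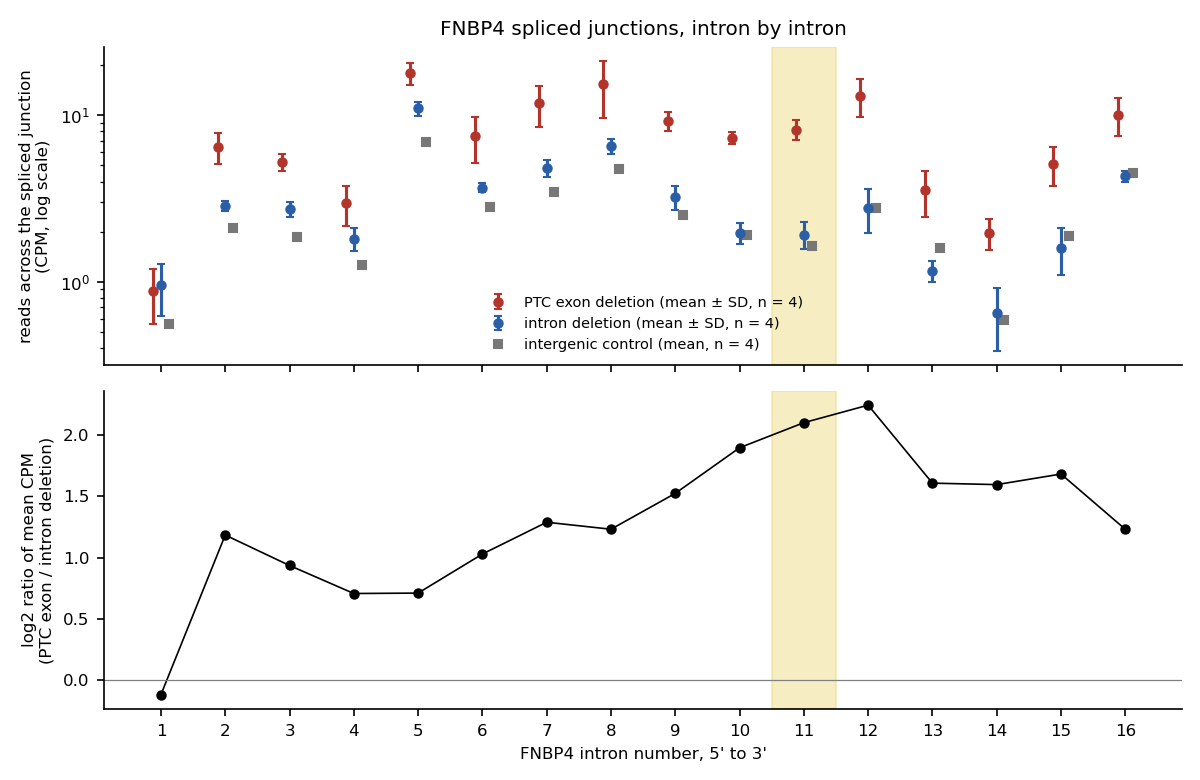
Reads across each spliced FNBP4 junction from the 5′ to the 3′ end (upper panel, CPM on a log axis, mean ± SD of 4 libraries per target, squares for the mean of 4 controls) and the log2 ratio of PTC exon deletion to intron deletion (lower panel); the band marks the edited intron. The ratio runs from 0.71 at introns 4 and 5 to 2.24 at intron 12, with intron 1 at -0.12.

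Beyond FNBP4, gene levels differed widely between the groups. Of 11729 genes tested, 2057 were higher and 2039 lower in PTC exon deletion than in intron deletion at an adjusted p under 0.05 (limma, Benjamini-Hochberg), 34.9% of those tested, with 17.5% higher and 17.4% lower. Of these, 290 were at least 2-fold higher and 358 at least 2-fold lower. The groups did not overlap for 40.5% of all genes tested. The median log2 difference over all genes was 0.004. For 2940 of the 4096 called genes (71.8%) the control mean lay between the means of the groups, and for 3164 (77.2%) the PTC exon deletion mean was the farther one from it. Without hgRNA 3 replicate 1 the counts were 3220 higher (27.5%) and 3126 lower (26.7%), the background for list counts given without that library, and without hgRNA 3 replicate 2 they were 3565 and 3710. Leaving out any 1 of the other 6 libraries brought them to between 1121 and 1300 higher and between 1118 and 1347 lower. Since nothing in the labels names separate batches and all libraries come from one line, the p-values measure the spread among these cultures only. In bulk RNA, fewer cells that express a gene and less RNA of it per cell cannot be told apart.

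Both pairs of constructs showed the difference. Between hgRNAs 3 and 2, 1019 genes were higher and 1072 lower, and between hgRNAs 4 and 1, 941 were higher and 980 lower. Of these, 1260 genes were called in both with the same direction and 0 with opposite directions. No gene was called between hgRNAs 4 and 3 (460 had an unadjusted p under 0.05), between hgRNAs 2 and 1 (112), or for the interaction of both pairs (274; all limma). At 2 libraries per hgRNA these counts of 0 do not show that the hgRNAs of a target act alike.

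The genes named next are the 12 with the largest rises among called genes whose log2 CPM averaged 2 or more and whose groups did not overlap, clone names left out. SLC14A1, a urea transporter, had 39.5, 29.7, 31.9 and 29.7 CPM in the PTC exon deletion libraries, against 1.30, 1.12, 2.86 and 2.17 CPM in the intron deletion libraries. The lowest of the PTC exon deletion libraries was far above the highest of the others, and the control mean, 6.73 ± 0.960 CPM (SD, n = 4), lay between them. Its log2 difference was 4.19 (SE 0.206, adjusted p = 4.35e-06, limma). BGN, which encodes the matrix proteoglycan biglycan, had 61.9, 65.1, 68.3 and 65.5 CPM, against 11, 12.7, 14.7 and 15 CPM with the intron deleted. Its groups were tight and did not overlap, with a log2 difference of 2.30 (SE 0.0897, adjusted p = 1.94e-06, limma). PDGFRA, a receptor for platelet-derived growth factor, had 82.6, 54.5, 67.4 and 53.7 CPM with the PTC exon deleted, against 12.0, 12.6, 15.4 and 13.7 CPM with the intron deleted. It rose by 2.24 on the log2 scale, and by 2.10 without hgRNA 3 replicate 1. The remaining genes of the 12 were SYT12 (2.67), OLFML2A (2.58), PLA2R1 (2.30), CA9 (2.30), MFAP2 (2.05), PTGIS (2.03), LAMA5 (1.99), SEMA3D (1.98) and SNED1 (1.96), with the log2 difference in parentheses. PLA2R1 encodes a phospholipase A2 receptor, CA9 a membrane carbonic anhydrase, MFAP2 a microfibril protein, PTGIS prostacyclin synthase and LAMA5 a laminin chain. CA9 averaged 22.6 CPM with the PTC exon deleted and 4.65 with the intron deleted, and the controls, at 11.8 to 25.9 CPM, overlapped the PTC exon deletion libraries only. MFAP2 averaged 19.3 and 4.70 CPM, with a control mean of 11.3 CPM. Larger rises than most of these were seen below that level, among them SERPINF1 (3.22) and CFI (2.49). SERPINF1 had 2.27 ± 0.227 CPM with the PTC exon deleted and 0.217 ± 0.0391 CPM with the intron deleted (SD, n = 4 each). It passed the count filter only through the PTC exon deletion libraries. CFI was near the floor, with deposited values of 0.09 RPKM for hgRNA 3, 0.63 for hgRNA 4 and 0.11 in the controls. For hgRNAs 1 and 2 they were 0.03 and 0.05 RPKM. Its deposited log2 fold change over control was -0.18 for hgRNA 3 and 2.50 for hgRNA 4.

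Genes with large falls were chosen in the same way. SERPINB2, which encodes plasminogen activator inhibitor 2, had 2.05, 1.92, 0.962 and 0.922 CPM in the PTC exon deletion libraries, against 60.9, 54.3, 60.6 and 73.2 CPM in the intron deletion libraries. The controls, with 18.9 ± 5.11 CPM (SD, n = 4), lay between the groups, which were far apart. The log2 difference was -5.47 (SE 0.198, adjusted p = 1.34e-06, limma). ADAMTS1, a secreted metalloprotease, had 33.7, 32.7, 29.1 and 29.3 CPM with the PTC exon deleted, against 274, 247, 244 and 262 CPM with the intron deleted. The duplicates of every hgRNA were close to each other, and the control mean of 126 ± 28.0 CPM (SD, n = 4) again lay between the groups. Its log2 difference of -3.04 had the smallest p of all genes tested (SE 0.0787, adjusted p = 1.84e-07, limma). BMPER, a secreted regulator of BMP signalling, had 4.11, 4.73, 3.85 and 2.60 CPM, against 40.4, 37.5, 32.6 and 38.5 CPM with the intron deleted, a log2 difference of -3.30 between groups that did not overlap. Others with large falls were DKK1 (-2.73), a secreted Wnt inhibitor, ADAMTS5 (-2.60), SVEP1 (-2.39), RGMB (-2.34), a BMP co-receptor, ANGPTL4 (-2.29), SH2D5 (-2.26), TNFRSF11B (-2.22), the decoy receptor osteoprotegerin, and DAW1 (-2.17).

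**Figure D3:**
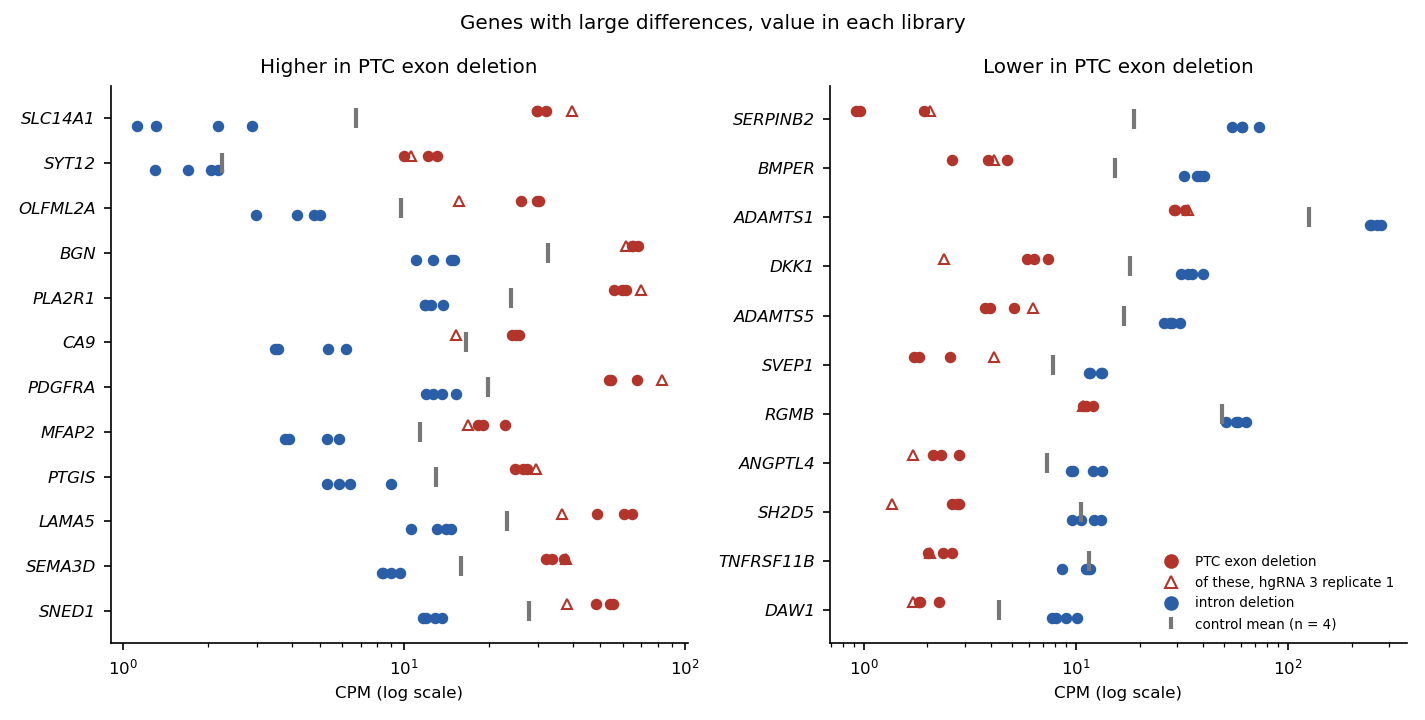
CPM on a log axis in each library for the 12 genes with the largest rises (left) and 11 genes with large falls (right) among those whose log2 CPM averaged 2 or more and whose groups did not overlap; red for PTC exon deletion, with hgRNA 3 replicate 1 as an open triangle, blue for intron deletion, and a grey bar for the mean of 4 controls. No red point crosses a blue one, and the grey bars of SLC14A1 (6.73 CPM) and SERPINB2 (18.9 CPM) lie between the groups.

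Targets of p53, the transcription factor that halts the cycle of damaged cells, were mostly lower in the PTC exon deletion libraries. Of 29 tested, 18 fell and 1, PLK2, rose, with a median log2 difference of -0.65; the shares over all genes were 17.4% and 17.5% and the median 0.004. CDKN1A, the cell cycle inhibitor p21, had 52.5, 106, 88.5 and 93.2 CPM with the PTC exon deleted, against 247, 260, 290 and 285 CPM with the intron deleted. All 4 were below the others, and the control mean of 299 ± 62.6 CPM (SD, n = 4) was on the side of the intron deletion libraries. It fell by 1.71 (SE 0.172, adjusted p = 0.000162, limma), and by 1.46 without hgRNA 3 replicate 1. GADD45A, another growth arrest gene, fell by 1.71 (29.2 ± 3.79 CPM with the PTC exon deleted, 95.3 ± 9.66 CPM with the intron deleted, SD, n = 4 each). MDM2, the ubiquitin ligase of p53, fell by 0.87.

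Genes of DNA replication and S phase entry fell together. Of 36 tested, 31 fell and 0 rose, with a median of -0.49; without hgRNA 3 replicate 1, 35 fell. The 5 that were not called, TK1, GINS3, GINS1, POLA1 and RRM1, had log2 differences of -0.47 to -0.16. CDC6, which loads the replicative helicase, had 45.2, 33.9, 30.8 and 37.0 CPM with the PTC exon deleted, against 84.1, 74.6, 72.8 and 70.8 CPM with the intron deleted, and fell by 1.06 (SE 0.110, adjusted p = 0.000194, limma). CCNE1, the cyclin of the transition from G1 to S phase, fell by 1.15, and RRM2, a ribonucleotide reductase subunit, fell by 0.76. CCND1, the cyclin of early G1, had 431, 496, 494 and 535 CPM with the PTC exon deleted, against 1743, 1469, 1626 and 1588 CPM with the intron deleted, and fell by 1.72. Control values for CDC6 (64.9 ± 1.1 CPM) and CCND1 (1259 ± 150 CPM; SD, n = 4) lay between the groups. Mitotic genes did not move as a block. Of 26, 2 rose and 3 fell, with a median of -0.06, beside 17.5% higher and 17.4% lower over all genes. Without hgRNA 3 replicate 1 the counts were 3 and 10, beside 27.5% and 26.7%. AURKB fell by 0.61 and AURKA by 0.46, both of them mitotic kinases, while cyclin B2 (CCNB2) rose by 0.33.

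Cholesterol and fatty acid synthesis genes were lower. The shares over all genes, for this and the next lists, were 17.4% lower and 17.5% higher. Of 26, 19 fell and 2 rose, with a median of -0.45. FASN, fatty acid synthase, had 349, 383, 426 and 437 CPM with the PTC exon deleted, against 768, 773, 766 and 761 CPM with the intron deleted. The intron deletion libraries matched the controls (779 ± 111 CPM, SD, n = 4) within their SD, and the PTC exon deletion libraries lay below them (log2 difference -0.95, SE 0.0653, adjusted p = 2.48e-05, limma). DHCR7 and MVD, enzymes of the sterol pathway, fell by 0.67 and 0.77. The 2 that rose were SREBF1 (0.38), a transcription factor of lipid synthesis, and SCD (0.54), which desaturates fatty acids. Of 21 genes of the integrated stress response and amino acid supply, 8 fell and 3 rose (median -0.36); without hgRNA 3 replicate 1, 9 fell and 5 rose. The heterodimeric amino acid transporter of SLC7A5 and SLC3A2 was lower for both chains: SLC7A5 had 119.5, 87.0, 75.6 and 85.5 CPM with the PTC exon deleted, against 279, 299, 256 and 278 CPM with the intron deleted, and fell by 1.62, and SLC3A2 fell by 1.32. The glutamine transporter SLC38A2 rose by 0.76. Of 16 genes of the unfolded protein response, 3 rose, among them the chaperone HSPA5 (0.36), and 1 fell, SDF2L1 (-1.04). Without hgRNA 3 replicate 1, 8 rose and 1 fell, and SDF2L1 was at -0.59.

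Matrix genes moved mostly up, beside 17.5% higher and 17.4% lower over all genes. Of 24 collagens and matrix genes, 13 rose and 4 fell, with a median of 0.55. COL1A1, a chain of type I collagen, had 530, 847, 854 and 951 CPM with the PTC exon deleted, against 335, 294, 356 and 320 CPM with the intron deleted. The groups did not overlap and the log2 difference was 1.26 (SE 0.136, adjusted p = 0.000231, limma), and the controls, at 989 ± 368 CPM (SD, n = 4), overlapped the PTC exon deletion libraries only. COL6A3 rose by 1.62 (26.8 ± 1.98 CPM with the PTC exon deleted, 8.71 ± 0.481 CPM with the intron deleted, SD, n = 4 each). The collagen cross-linking enzyme LOX fell by 0.91. Of 9 fibroblast markers tested, 7 rose and 1, THY1, fell (-0.51, and -0.34 without hgRNA 3 replicate 1), with a median of 1.06. Their summed level was 1115 to 1656 CPM in the PTC exon deletion libraries and 649 to 733 CPM in the intron deletion libraries. The largest part was COL1A1, with means of 795 and 326 CPM and a higher control mean of 989 CPM. The control means of PDGFRA, PDGFRB and FAP lay between those of the groups. No control sum is given, so the sums do not show a gain over the controls. The defining markers DCN and LUM stayed under 1 CPM throughout. The fibroblast markers overlap the matrix list, and their part in its result was not tested. COL3A1, with the highest log2 difference of both lists (2.46), had 0.174 CPM with the intron deleted and 1.13 CPM with the PTC exon deleted. It passed the count filter only through the PTC exon deletion libraries, so a fall could not have been counted. Of 13 plasminogen system and serpin genes, 7 fell and 4 rose. SERPINF1, among those that rose, passed the count filter only through the PTC exon deletion libraries. PLAT, tissue plasminogen activator, fell by 0.83. It averaged 328 CPM with the PTC exon deleted and 584 CPM with the intron deleted. Its control mean of 372 CPM was nearer to the PTC exon deletion mean.

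**Figure D4:**
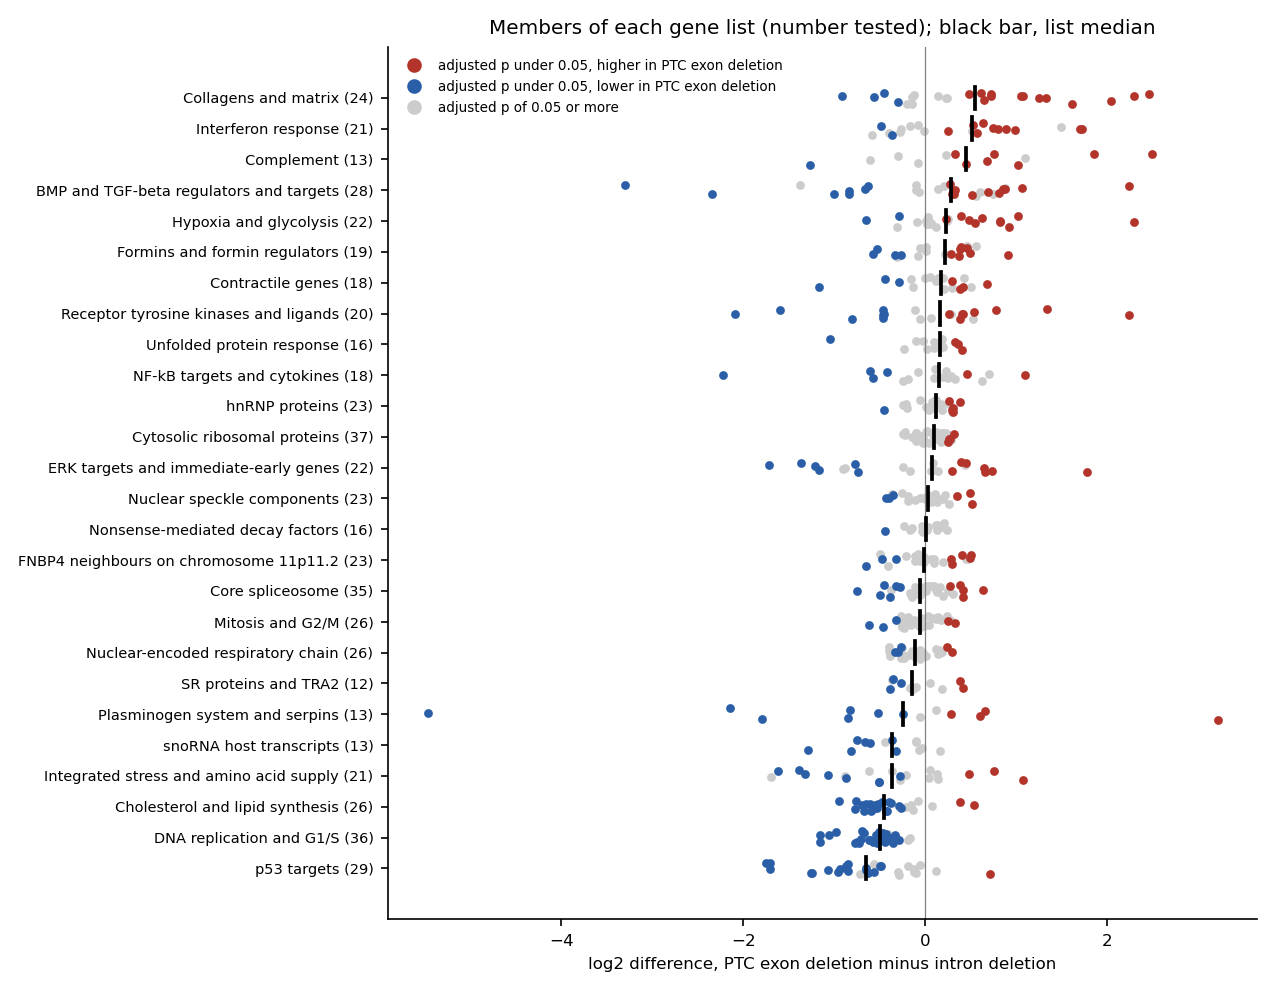
Log2 difference (PTC exon deletion minus intron deletion) of each tested member of 26 gene lists, ordered by list median; red and blue points passed an adjusted p under 0.05 and black bars are medians. Replication genes, with a median of -0.49, lie wholly left of 0, and collagens and matrix genes, with a median of 0.55, mostly right of it.

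Signalling genes moved in both directions, as did all genes (17.5% higher and 17.4% lower). Of 28 BMP and TGF-beta regulators and targets, 11 rose and 7 fell (median 0.29); without hgRNA 3 replicate 1, 17 rose and 8 fell. The ligand TGFB1 had 374, 380, 398 and 405 CPM with the PTC exon deleted, against 162, 191.8, 201.2 and 192.03 CPM with the intron deleted, and rose by 1.06 (SE 0.0754, adjusted p = 2.9e-05, limma). Beside BMPER and RGMB, those that fell were the BMP antagonist GREM1 (by 1.00), the activin-binding FST (0.83) and FSTL3 (0.83), the activin subunit INHBA (0.62) and the co-receptor TGFBR3 (0.66). SKIL, a repressor in the SMAD pathway, rose by 0.88, and the inhibitory SMAD6 rose by 0.86. Of 20 receptor tyrosine kinases and ligands, 8 rose and 7 fell. FGF2 fell by 1.59 (54.1 ± 3.86 CPM with the PTC exon deleted, 164 ± 20.6 CPM with the intron deleted, SD, n = 4 each) and NRG1, a ligand of ERBB receptors, by 2.09. PDGFRB rose by 1.34 beside PDGFRA. Of 22 ERK targets and immediate-early genes, 7 rose and 6 fell. The ERBB ligand HBEGF fell by 1.37 and the MAP kinase phosphatases DUSP5 and DUSP1 by 1.21 and 1.17, while FOS rose by 1.79.

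The next counts stand beside 17.5% higher and 17.4% lower over all genes, or 27.5% and 26.7% without hgRNA 3 replicate 1. Of 22 hypoxia and glycolysis genes, 10 rose and 2 fell, with a median of 0.24. Without hgRNA 3 replicate 1, 17 of them rose and 3 fell. VEGFA, the vascular growth factor, had 162, 138, 112 and 124 CPM with the PTC exon deleted, against 59.97, 69.3, 69.7 and 62.6 CPM with the intron deleted, and rose by 1.02 (SE 0.0918, adjusted p = 9.09e-05, limma). HK2, the hexokinase of the list, fell by 0.65. Of 21 interferon response genes, 10 rose and 2 fell, OAS3 (-0.49) among them, with a median of 0.52. IFI44L rose by 1.73 (7.22 ± 0.541 CPM with the PTC exon deleted, 2.15 ± 0.278 CPM with the intron deleted, SD, n = 4 each). Of 13 complement genes 7 rose, C1R, a protease of the classical pathway, by 1.86, and 1 fell, C3, by 1.26. The largest rise of this list, that of CFI (2.49), was near the floor, with 0.03 and 0.05 RPKM for hgRNAs 1 and 2. Without hgRNA 3 replicate 1, 9 complement genes rose and 2 fell. Of 18 NF-kB targets and cytokines, 2 rose (CCL2 by 1.1) and 4 fell (IL1B by 0.61). Without hgRNA 3 replicate 1, 4 of the NF-kB list rose and 5 fell, and the median was 0.06, against 0.15 with it.

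The RNA-processing lists had medians from -0.36 for snoRNA host transcripts to 0.31 for the kinases of SR proteins. Over all genes 17.5% rose and 17.4% fell, or 27.5% and 26.7% without hgRNA 3 replicate 1. The list counts of this paragraph are to be read beside these shares. Among 12 SR proteins, which bind exons and promote splicing, 2 rose (SRSF4 by 0.42, SRSF11 by 0.38) and 3 fell (SRSF7 by 0.38, SRSF1 by 0.35 and SRSF3 by 0.27); without hgRNA 3 replicate 1, 2 rose and 8 fell. Of 8 kinases that phosphorylate them, 4 rose: PRPF4B by 0.54, CLK1 by 0.49, CLK4 by 0.38 and DYRK1A by 0.36. None of them fell, and without hgRNA 3 replicate 1, 5 rose and 1 fell. CLK1 had 47.8, 52.2, 42.1 and 41.5 CPM with the PTC exon deleted, against 31.2, 31.7, 32.8 and 34.7 CPM with the intron deleted (adjusted p = 0.00177, limma), without overlap. Of 23 nuclear speckle components 3 rose and 3 fell, and of 35 core spliceosome genes 5 rose and 6 fell, all below the shares over all genes. Without hgRNA 3 replicate 1, 6 speckle components rose and 8 fell, and 8 core spliceosome genes rose and 11 fell. SNRPA1, a protein of the U2 snRNP, fell by 0.74. Of 23 hnRNP proteins, 5 rose, among them HNRNPA1 (0.38) and HNRNPK (0.30), and 1, HNRNPAB, fell (-0.45). Without hgRNA 3 replicate 1, 10 rose and 5 fell, and the median was 0.04, against 0.12 with it. Of 16 nonsense-mediated decay factors, none rose and 1, SMG5, fell (median 0.02); without hgRNA 3 replicate 1, 3 rose and 4 fell (median -0.07). Of 13 snoRNA host transcripts, 7 fell, among them SNHG15 (-1.29), and none rose; without hgRNA 3 replicate 1, 7 fell and 1 rose. Of 19 formins and formin regulators, 7 rose and 4 fell. FNBP1L, a membrane-bending protein that binds formins, had 131, 76.5, 78.5 and 77.8 CPM with the PTC exon deleted, against 47.6, 50.2, 44.7 and 44.6 CPM with the intron deleted. It rose by 0.92, and by 0.73 without hgRNA 3 replicate 1, which was the highest. Of 37 ribosomal protein genes 4 rose and none fell, and 19 rose and 1 fell without hgRNA 3 replicate 1. Of 26 respiratory chain genes, 2 rose and 3 fell, and 6 rose and 4 fell without hgRNA 3 replicate 1.

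Lists for other cell types held few measured members. Over all genes 17.5% rose and 17.4% fell, or 27.5% and 26.7% without hgRNA 3 replicate 1. Of 8 pigment epithelium markers tested, 3 rose (SERPINF1 by 3.22, OTX2 by 1.25 and MITF by 0.37) and none fell. SERPINF1, at 0.217 CPM with the intron deleted, passed the count filter only through the PTC exon deletion libraries, so a fall could not have been counted. The same held for the neuron marker GAP43 (0.163 CPM with the intron deleted, 0.882 with the PTC exon deleted) and the endothelial marker PECAM1 (0.158 and 0.701 CPM). Of 6 neuron markers 3 rose (3, and 1 fell, without hgRNA 3 replicate 1), of 4 endothelial markers 2 rose, and of 2 immune markers none was called.

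The genes next to FNBP4 were examined because cutting took place in their chromosome arm. Of 23 neighbours at 11p11.2, 5 rose and 3 fell, 8 called in all beside 34.9% of all genes, and the median was -0.01; without hgRNA 3 replicate 1, 6 rose and 7 fell. Those that rose were MADD (0.51), NR1H3 (0.50), ATG13 (0.41), AMBRA1 (0.30) and PTPRJ (0.29), and those that fell were DDB2 (-0.65), PACSIN3 (-0.48) and MTCH2 (-0.32). Genes close by that were not called included NUP160 (0.10), CELF1 (-0.01) and AGBL2 (0.47). On the short arm of chromosome 11, on the telomere side of FNBP4, 42 of 206 genes rose and 24 fell, with a median of 0.06. On the long arm 71 of 449 rose and 78 fell, with a median of -0.04. On other chromosomes 1909 of 10733 rose and 1885 fell, with a median of 0.01. Of the genes edited elsewhere in the study, the RNA helicase DDX17 rose by 0.45 (618 ± 83.6 CPM with the PTC exon deleted, 450 ± 23.6 CPM with the intron deleted, SD, n = 4 each), and DDX5 (-0.04), HDAC7 (-0.05) and HNRNPD (0.28) were not called.

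Splicing outside FNBP4 was compared with percentages of inclusion and their reads. As designed, the spread was taken from the 8 libraries. No event of 270329 was then called at an adjusted p under 0.05 and a difference of 10 percentage points (limma). An unadjusted p under 0.05 was found for 31103 (limma), among them events without a difference in percentage. The fit used reads for inclusion over reads for exclusion, each plus 1, and at 0 or 100% this ratio shifts with read depth. The FNBP4 exon at chr11:47724028-47724172, at 100% in all 8 libraries, had an unadjusted p of 0.00026 (limma). With the spread taken from all 34 libraries 71 were called, 0.0263% of those tested, 28 with more and 43 with less inclusion in PTC exon deletion. They comprised 23 cassette exons with more and 29 with less inclusion, and 2 introns with more and 10 with less retention. In a fit weighted by reads and limited to events between 5 and 95%, chosen after seeing the data, 179 of 16257 were called (1.1%), 65 with more and 114 with less inclusion. Of the events called, 59 were in both, 83.1% of the 71 and 32.96% of the 179. All 59 had the same direction in the pair of hgRNAs 3 and 2 and in that of hgRNAs 4 and 1. The event counts take complementary sites of one choice as separate events, such as those of MPP5 at -21.9 and 21.9 points. The events named next are the 6 cassette exons, 6 introns and 3 alternative sites with the largest differences among those called with all 34 libraries whose groups did not overlap; that fit supplies their adjusted p-values (limma). An exon of VGLL4 at chr3:11643517-11643643, named after its values were seen, had a larger difference than any of them (33.1 points, adjusted p = 0.0113, limma), but its groups overlapped: it was included in 90.3%, 87.8%, 83.6% and 70.3% of reads with the PTC exon deleted, against 45.0%, 33.98%, 44.1% and 76.5% with the intron deleted.

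A 71-base exon of MDM2 at chr12:68809016-68809086 was included in 30.5%, 36.7%, 27.9% and 37.2% of reads with the PTC exon of FNBP4 deleted, against 69.8%, 58.4%, 63.7% and 65.7% with the intron deleted. The groups were far apart, and the controls, at 34.4% to 56.5%, overlapped the PTC exon deletion libraries at their low end (difference -31.3 points, adjusted p = 0.00745). A 63-base exon of TPM1, a gene for the actin-binding protein tropomyosin, at chr15:63061726-63061788 was included in 45.6%, 54.9%, 51.3% and 53.1%, against 25.9%, 27.8%, 26.3% and 25.2%. It rested on 2798 to 6129 reads per library, and all PTC exon deletion libraries were above the others and above the controls at 30.9% to 34.3% (difference 24.9 points, adjusted p = 0.00139). The neighbouring 76-base TPM1 exon at chr15:63061198-63061273, named after its values were seen, was included in 61.9%, 60.02%, 59.9% and 61.2%, against 85.0%, 82.9%, 84.5% and 84.2%. It moved the other way by 23.4 points (difference -23.4, adjusted p = 0.000146), and its control mean was 77.5%.

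The other exons of the 6 had differences of -28.2 points (LINC00704), -26.0 (TLR4), -25.1 (PHLDB2) and 24.9 (HSD17B14). The TLR4 exon was included in 25.4%, 23.8%, 17.9% and 22.5% with the PTC exon deleted, against 46.5%, 51.1%, 50.0% and 45.9% with the intron deleted. The 3 alternative sites were those of MPP5 (-21.9), IFITM10 (-13.0) and EEF1A1 (-11.7). For the EEF1A1 site hgRNA 3 replicate 1 stood at 70.6%, against 90.9% to 95.7% in the other PTC exon deletion libraries and 97.3% to 100% in the intron deletion libraries.

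Of the 6 introns, 5 were retained less often with the PTC exon deleted. An intron of RPL13, a ribosomal protein gene, at chr16:89560713-89560939 was retained in 29.1%, 33.5%, 27.3% and 29.5%, against 46.8% to 56.7% in the intron deletion libraries. The PTC exon deletion libraries were on the level of the controls (mean 28.0%), and the intron deletion libraries stood above both (difference -22.1 points, adjusted p = 0.0183). An intron of FNBP1L at chr1:93551106-93552408 was retained in 44.9%, 55.2%, 57.0% and 48.2%, against 63.6%, 70.2%, 85.0% and 82.9%, with controls at 58.5% to 68.9% (difference -24.1 points, adjusted p = 0.00723). The other differences were -27.8 points for FKBP15, -22.8 for INPP4B and -21.7 for STK25. The CDK17 intron was retained more often, at 65.4%, 62.0%, 65.8% and 65.9% with the PTC exon deleted, against 34.4%, 55.4%, 41.3% and 33.3% with the intron deleted (difference 23.7 points, adjusted p = 0.0461). The STK25 intron had its lowest value, 11.9%, in hgRNA 3 replicate 1, against 29.5% to 34.5% in the other PTC exon deletion libraries.

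Over 5708 introns with a mean retention between 5 and 95%, the median difference was -1.05 points. For 345 of them all PTC exon deletion libraries lay below all intron deletion libraries, and for 107 they lay above. These shares were close to those over all 16257 events between 5 and 95%, where 8.09% did not overlap and 5.29% were lower. The per-library medians were 9.59%, 10.6%, 7.55% and 8.11% with the PTC exon deleted, against 10.53%, 9.80%, 10.3% and 9.89% with the intron deleted, and 8.58% to 9.77% in the controls. The medians of the groups overlapped: both hgRNA 4 libraries were below all others, and hgRNA 3 replicate 2 was the highest.

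**Figure D5:**
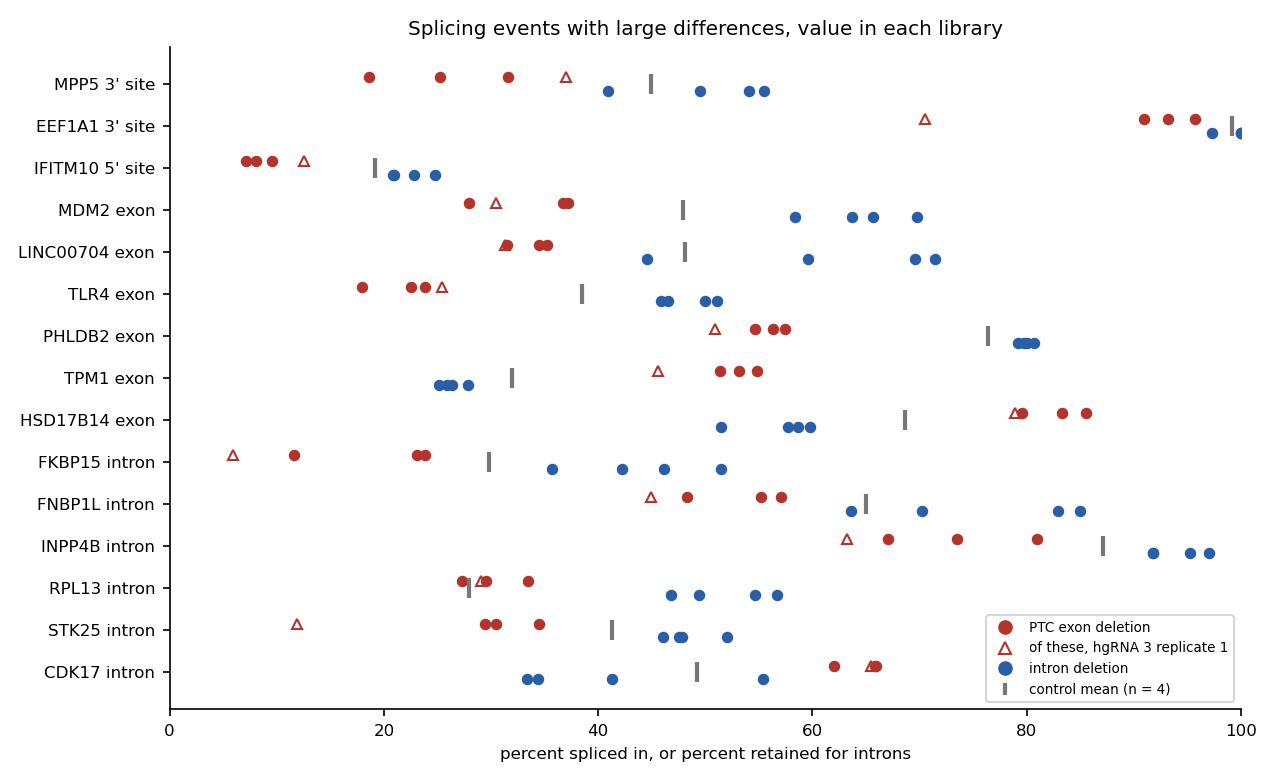
Percent spliced in, or percent retained for introns, in each library for the 6 cassette exons, 6 introns and 3 alternative sites with the largest differences among called events whose groups did not overlap; red for PTC exon deletion, with hgRNA 3 replicate 1 as an open triangle, blue for intron deletion, and a grey bar for the mean of 4 controls. The 63-base TPM1 exon, the HSD17B14 exon and the CDK17 intron are higher in PTC exon deletion (24.9, 24.9 and 23.7 points) and the others lower.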

How the data were processed

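The authors deposited a vast-tools table of percent inclusion per splicing event and library, per the file headers, with quality strings that hold the read counts behind each percent. The authors also deposited tables of gene RPKM, log2 fold change over control and FDR (adjusted p-value), per the file headers; Salmon 1.10 and edgeR are named in the submitters' processing notes. No aligner or genome build is given in the sources used here. Of the library columns, 2 that match no sample were not used. Coordinates are those of the event table, read as GRCh38 because 114459 of 114467 introns with 10 reads matched introns of GENCODE v29.

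From the quality strings, reads across spliced junctions were summed per gene, so genes without introns have no value, and depth ranged from 15027805 to 20148763 reads in the 8 libraries. Genes were kept where 2 libraries or more reached a CPM worth 10 reads in a library of median size and the total was 15 or more, scaled by TMM and tested with limma 3.58.1 (voom weights, R 4.3.3) with a coefficient per hgRNA, with p-values Benjamini-Hochberg adjusted over all genes. CPM shown are scaled over the 8 libraries and 4 controls. Events with 20 reads in every library were tested with limma on the log2 ratio of reads for inclusion over reads for exclusion, each plus 1; since this called none, events were named from the planned fit with all 34 libraries. Intervals cover counting error only. Up to 12 genes in each direction and 4 members per list were named by size and p; some list members beyond these are named after their values were seen. A few genes that the rule names are not reported here. Calls were tested on simulated data. Members and lists were chosen with earlier results of these data known. Tables were parsed with Python 3.11.15 and figures drawn with matplotlib 3.10.9.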

Additional observations from a re-analysis of the deposited data

Results flagged for a closer look

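In a group of 4 libraries, a single library lay far from the other 3 in 26 of 342 groups of values examined (7.6%), and chance gives about 1 in 20. Of these, 18 were in hgRNA 3 replicate 1, which also stood apart on the second principal component. The explanation was not tested.

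Values of hgRNA 3 replicate 1 that lay below the other PTC exon deletion libraries were CA9 at 15.3 CPM (others 24.3 to 25.6), SH2D5 at 1.37 CPM, SDF2L1 at 1.37 CPM, IL1B at 14.8 CPM, TGFB1I1 at 67.1 CPM, MADD at 59.9 CPM, ACP2 at 32.4 CPM and NDUFS3 at 30.2 CPM. Those above the others were FNBP1L at 131 CPM (others 76.5 to 78.5), PDIA4 at 615 CPM, LOX at 279.7 CPM, SERPINB7 at 3.35 CPM, SRSF4 at 125 CPM, PRPF4B at 82.1 CPM, RPL30 at 577 CPM, PSMC3 at 300.4 CPM, DDX17 at 743 CPM and HNRNPD at 418 CPM. In hgRNA 3 replicate 2, retention of the CDK17 intron, at 62.0%, lay below the other 3 at 65.4% to 65.9%.

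In the intron deletion group, hgRNA 1 replicate 1 was low for TNFRSF11B at 8.57 CPM, high for MVD at 78.8 CPM and low at the EEF1A1 splice site, at 97.3% beside 100% in the other 3. RPS4X was low in hgRNA 1 replicate 2 at 354 CPM. The library of hgRNA 2 replicate 1 was high for DLG4 at 84.3 CPM, LRP4 at 16.9 CPM and DDX17 at 485 CPM.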

How the results depend on the processing

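The numbers of called genes depended on which libraries were compared or left out. With all 8, 2057 were higher and 2039 lower. Between hgRNAs 3 and 2, 1019 and 1072 were called, and between hgRNAs 4 and 1, 941 and 980. These pairs were contrasts of the same fit over 8 libraries, with 2 libraries per hgRNA. Leaving out each library in turn gave 1121 to 3565 higher and 1118 to 3710 lower, with more calls without hgRNA 3 replicate 1 (3220 and 3126) or replicate 2 (3565 and 3710). Calls were fewer without hgRNA 4 replicate 1 (1121 and 1118) or replicate 2 (1291 and 1256), hgRNA 1 replicate 1 (1143 and 1253) or replicate 2 (1300 and 1347), and hgRNA 2 replicate 1 (1157 and 1242) or replicate 2 (1169 and 1194). Median-of-ratios scaling (2006 and 2074), no filter on low counts (1876 and 1851), the spread of all 34 libraries (1978 and 1729), averaged duplicates (1914 and 1882), removal of a GC content and length trend (2198 and 2136) and limma-trend (2057 and 1975) kept the counts within 1.5 times.

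The list counts followed the number of calls. With any 1 library left out, 15 to 23 p53 targets, 19 to 35 replication genes and 14 to 21 lipid synthesis genes fell, while without hgRNA 3 replicate 2 15 hnRNP proteins rose and 4 fell and 7 respiratory chain genes rose and 15 fell.

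Over the named genes and all these settings, 2160 values kept their direction and call, 249 kept the direction but lost the call, and 26 gained one.

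The replicate block gave 2050 higher and 2001 lower. The replicate numbers did not pair the libraries: the differences between replicates 1 and 2 correlated across genes at 0.21 for hgRNAs 3 and 4, 0.12 for 3 and 1, -0.04 for 3 and 2, -0.01 for 4 and 1, 0.03 for 4 and 2 and -0.12 for 1 and 2.

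Only genes that were not called changed direction. On the log2 scale, with the GC content and length trend removed, ACP2 was at 0.0053, ARFGAP2 at 0.099, NDUFS3 at 0.018 and PSMC3 at 0.057. With the spread of all 34 libraries ARFGAP2 was at 0.013 and CELF1 at 0.00757. Between hgRNAs 3 and 2, AGBL2 was at -0.65, ARFGAP2 at 0.023, HARBI1 at -0.059, PSMC3 at 0.10 and DDX5 at 0.073, and between hgRNAs 4 and 1, CELF1 was at 0.0043, LRP4 at 0.019 and NDUFS3 at 0.10. Leaving out single libraries gave ranges of -0.0060 to 0.90 for AGBL2, -0.039 to 0.018 for ARFGAP2, -0.035 to 0.016 for CELF1, -0.071 to 0.23 for HARBI1, -0.17 to 0.069 for LRP4, -0.29 to 0.046 for NDUFS3, -0.17 to 0.00778 for PSMC3, -0.094 to 0.011 for DDX5 and -0.14 to 0.028 for HDAC7. The cause was not tested.

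Splicing calls depended most on the fit. The design called 0 events, and up to 2 with a library left out (hgRNA 4 replicate 1). With all 34 libraries 71 were called. The fits added after seeing the data, weighted by reads, called 179 events of 5 to 95%, 165 of 2 to 98%, 164 with all 34 libraries and 166 with the replicate block; without weights 0 were called. With single libraries left out of the weighted fit, 82 to 97 were called without 1 library of hgRNA 4, 1 or 2, 261 without hgRNA 3 replicate 1 and 322 without replicate 2. The FNBP4 PTC exon (-14.9 points) and intron 12 (-10.7 points) passed the threshold with all 34 libraries and in the weighted fits, and the host intron (-17.3 points) in the weighted fits alone. With single libraries left out they ranged from -17.1 to -12.6, -12.6 to -8.25 and -20.2 to -15.8 points. The events of FNBP4 rested on few reads in the intron deletion libraries, which limits their precision.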
